A study of Homo sapiens with 9 samples.

Results

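SPHKAP, CADPS2, NTSR1, OLFML2B, DCHS1, GJA5, NTNG1 and CPA4 are 8 protein-coding genes of the 13745 in a table of BJ cells, human fibroblasts immortalised with hTERT. They were picked because 3 hairpins against lncRNA-OIS1, a long non-coding RNA, moved them away from both senescent libraries. Each was found by its symbol, and all 8 were in the table and among the 12481 genes tested, those with a value of at least 40 in some library. The values that chose them are those of lncRNA-OIS1 knockdown libraries 1 to 3 and of the non-targeting pair, so that contrast is given as a description, with no test.

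In these cells oncogenic RASG12V can be switched on, and the cells then enter senescence, a lasting arrest of division. LncRNA-OIS1 knockdown with RASG12V activation had 4 libraries (OIS1kd 1 to 4), each with its own hairpin, 32-2, 32-3, 32-8 and 32-9. p53 knockdown (p53kd) and BRD7 knockdown (BRD7kd), both with RASG12V activation, had 1 library each. The senescent, non-targeting group had 2 libraries with RASG12V active, which carried hairpins 500 and 507. The control, without RASG12V activation, had 1 library with hairpin 500. The labels list 14 days of 4-OHT for all 9 libraries, the control included, although the design text calls it untreated. Libraries of the replicated groups carried different hairpins, so the spread behind every p-value includes differences between hairpins. Nothing in the labels says whether they came from independent starting cultures, so the spread may leave out that between cultures, and no batch is named.

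Values are normalised read counts per gene, on one shared scale with a floor of 20 that holds 10% of the genes of every library. Since the counts behind them are unknown, a value at the floor is only an upper limit, and levels are compared between libraries, not between genes. In bulk RNA, fewer cells with a transcript and less of it per cell cannot be told apart. BRD7 was at 94.6 in BRD7kd, against 628.7 and 536.6 in the non-targeting pair; lncRNA-OIS1 itself was not analysed here. All 11 fibroblast markers were above the floor in all 9 libraries. Only 3 of 7 epithelial, 2 of 6 leukocyte, 1 of 6 endothelial and 2 of 9 neuronal markers were in the table at all. Of these, KRT8, KRT18, CD14, TIE1 and MAP2 were also above the floor in all 9 libraries, KRT18 at 486.0 to 3073.7. PTPRC, a leukocyte marker, was above the floor in the control alone, at 156.6.

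The 8 genes have unrelated textbook roles, mostly at the cell surface and in secretion. SPHKAP anchors protein kinase A and binds a sphingosine kinase, CADPS2 primes dense-core vesicles for release, and NTSR1 is the G-protein-coupled receptor of the peptide neurotensin. DCHS1 is a giant protocadherin that binds FAT4 on the next cell, and OLFML2B is a secreted protein with an olfactomedin domain. GJA5 (connexin 40) forms gap junction channels, best known in atrial muscle and arterial endothelium. NTNG1 (netrin-G1) is a membrane-anchored netrin of neurons, and CPA4 is a secreted zinc carboxypeptidase.

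RefSeq promoter windows (GRCh38.p14), from 250 bases before to 50 bases after a transcription start, were found for 6 of the 8 genes, namely SPHKAP, NTSR1, OLFML2B, GJA5, NTNG1 and CPA4. One window each is shown for 5 of them, to set the letters upstream of genes that were low in OIS1kd 1 to 3 beside those of genes that were high. NTNG1, which was also low, is not shown. Capitals mark matches, on either strand, to the AP-1 word TGAGTCA, the CRE word TGACGTCA, the E-box word CACGTG, the E2F words TTTGGCGC and TTTCCCGC, the ETS word CCGGAAG, the CCAAT word, the GC box GGGCGG and the TATA word TATAAA. CPA4 lies at chr7:130292911-130293210 on the plus strand, the second GJA5 start at chr1:147760553-147760852 on the minus strand, SPHKAP at chr2:228181638-228181937 on the minus strand, OLFML2B at chr1:162023820-162024119 on the minus strand and NTSR1 at chr20:62708586-62708885 on the plus strand.
CPA4: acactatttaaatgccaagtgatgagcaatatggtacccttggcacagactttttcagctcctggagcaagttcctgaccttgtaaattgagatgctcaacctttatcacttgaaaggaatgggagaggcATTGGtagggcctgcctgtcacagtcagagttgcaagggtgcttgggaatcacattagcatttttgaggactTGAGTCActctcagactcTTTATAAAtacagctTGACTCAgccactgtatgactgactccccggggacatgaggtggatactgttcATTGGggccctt
GJA5: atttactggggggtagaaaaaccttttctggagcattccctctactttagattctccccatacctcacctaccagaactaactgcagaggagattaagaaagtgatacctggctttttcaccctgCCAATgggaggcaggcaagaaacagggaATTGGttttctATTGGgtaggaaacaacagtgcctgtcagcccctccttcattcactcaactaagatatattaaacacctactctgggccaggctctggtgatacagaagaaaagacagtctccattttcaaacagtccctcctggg
SPHKAP: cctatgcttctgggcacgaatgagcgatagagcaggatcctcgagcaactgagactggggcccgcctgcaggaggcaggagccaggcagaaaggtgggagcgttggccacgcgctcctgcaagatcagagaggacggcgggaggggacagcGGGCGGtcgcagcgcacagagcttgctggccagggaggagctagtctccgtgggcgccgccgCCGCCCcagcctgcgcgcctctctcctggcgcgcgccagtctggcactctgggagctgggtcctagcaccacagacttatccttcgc
OLFML2B: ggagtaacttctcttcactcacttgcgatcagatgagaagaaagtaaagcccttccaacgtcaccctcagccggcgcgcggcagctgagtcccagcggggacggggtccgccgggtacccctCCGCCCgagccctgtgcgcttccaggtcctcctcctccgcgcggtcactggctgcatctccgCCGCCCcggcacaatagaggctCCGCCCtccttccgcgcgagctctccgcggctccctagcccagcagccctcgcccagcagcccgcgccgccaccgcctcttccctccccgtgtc
NTSR1: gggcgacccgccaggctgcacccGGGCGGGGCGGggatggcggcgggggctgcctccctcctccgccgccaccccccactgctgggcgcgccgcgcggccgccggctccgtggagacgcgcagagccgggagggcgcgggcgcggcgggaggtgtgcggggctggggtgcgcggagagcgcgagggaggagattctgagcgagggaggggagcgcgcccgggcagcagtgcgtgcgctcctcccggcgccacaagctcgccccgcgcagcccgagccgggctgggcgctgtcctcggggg

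The CPA4 window holds 2 AP-1 words, which begin 48 and 15 bases before the start, and 2 overlapping TATA matches 30 and 28 bases before it. Of 35116 RefSeq windows of the same length, 4.95% hold an AP-1 word and 0.222% at least 2. A TATA word is in 11.5%, and 2.36% hold at least 2. CPA4 also holds 2 CCAAT words, and the second GJA5 window holds 3, while 34.6% of all windows hold at least 1 and 10.8% at least 2. The first GJA5 window (chr1:147773302-147773601) and the first NTNG1 window (chr1:107139838-107140137) hold none of the words. The 3 windows of genes that were high hold GC boxes and no other word on the list, 2 in SPHKAP, 2 overlapping ones in NTSR1 and 3 in OLFML2B. NTNG1 was low, and its other windows hold 1 and 6 GC boxes, so these boxes do not set the high genes apart. CADPS2 and DCHS1, which were high, have no window here. A GC box is in 45% of all windows, and 26.7% hold at least 2. These matches describe letters in the windows and say nothing of which factors bind there.

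In OIS1kd 1 to 3, 5 of the genes were higher than in the non-targeting pair and 3 were lower. SPHKAP, the kinase A anchor, read 1071.7, 1485.1 and 1292.9 in OIS1kd 1 to 3, against 305.9 and 234.4 in the non-targeting pair. Its means were 1283 ± 207 (SD, n = 3) and 270 ± 50.6 (SD, n = 2), 4.75-fold apart. CADPS2, the vesicle priming factor, read 85.7, 73.1 and 70.6 in OIS1kd 1 to 3, against 24.1 and 23.1 in the non-targeting pair, close to the floor. Its groups were 3.23-fold apart by the means of log2 values. The groups did not overlap for either gene, as the choice of genes requires; all 3 knockdown libraries were above both non-targeting ones for 23% of all genes tested and below both for 27.9%.

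NTSR1, the neurotensin receptor, read 499.7, 481.2 and 527.1 in OIS1kd 1 to 3, against 146.4 and 166.4 in the non-targeting pair, 3.22-fold apart. OLFML2B, the olfactomedin protein, read 467.6, 549.3 and 460.6 in OIS1kd 1 to 3, against 172.9 and 135.8 in the non-targeting pair, 3.2-fold apart. DCHS1, the protocadherin, read 2661.1, 2319.9 and 2104.4 in OIS1kd 1 to 3, against 790.0 and 689.3 in the non-targeting pair, 3.19-fold apart. The coefficient of variation over OIS1kd 1 to 3 was lowest for NTSR1, at 4.59%, and highest for SPHKAP, at 16.1%.

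Among the 3 lower genes, GJA5, the connexin, read 178.4, 149.1 and 195.1 in OIS1kd 1 to 3, against 923.4 and 889.2 in the non-targeting pair. It was 5.23-fold lower by the means of log2 values. NTNG1, the netrin, read 85.9, 101.6 and 116.8 in OIS1kd 1 to 3, against 428.1 and 538.2 in the non-targeting pair, and was 4.77-fold lower. CPA4, the carboxypeptidase, was at the floor of 20 in all 3 knockdown libraries, against 90.2 and 91.0 in the non-targeting pair, so it was at least 4.53-fold lower. For CPA4 the spread over OIS1kd 1 to 3 is unknown, because all 3 values are the floor itself.

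**Figure D1:**
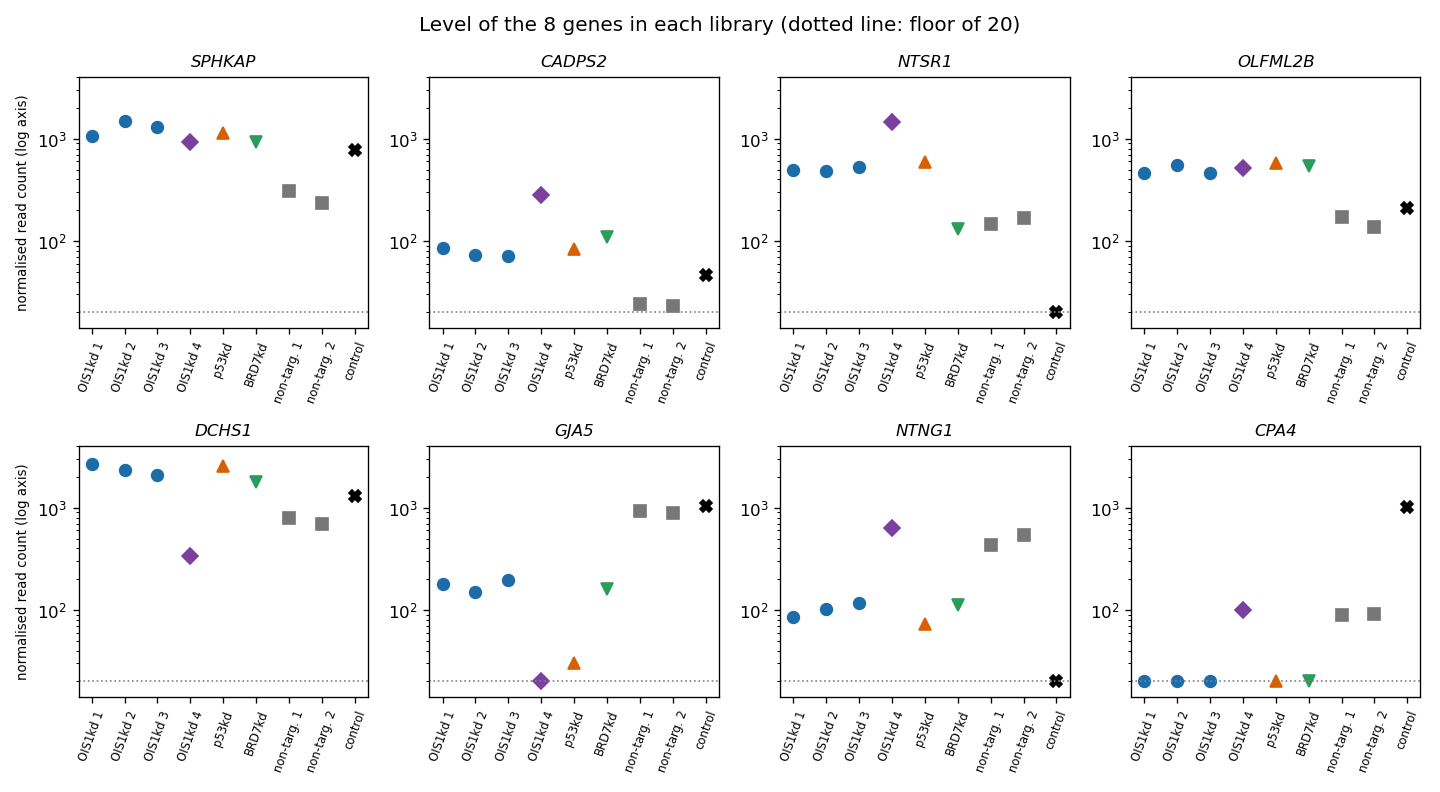
Normalised read count (log axis) of the 8 genes in each of the 9 libraries, 1 point a library, with the floor of 20 as a dotted line. OIS1kd 1 to 3 lie together in all 8 panels, which the choice of genes favours. OIS1kd 4 lies away from them in some panels, for example at 1467.3 for NTSR1 and at 340.8 for DCHS1.

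Against all genes tested, the distance between the closest libraries of the 2 groups, called the gap, places the 8 genes at the ends of the range. GJA5, CPA4 and NTNG1 had the 3 widest gaps of the 6507 genes with a lower mean, at 4.56-fold, 4.51-fold and 3.66-fold. The gap of CPA4 is a lower limit, since OIS1kd 1 to 3 are at the floor, so its place behind GJA5 is set by the floor. Among the 5974 genes with a higher mean, SPHKAP ranked 4th with a gap of 3.5-fold, CADPS2 ranked 13th, NTSR1 14th, OLFML2B 17th and DCHS1 18th, the last with 2.66-fold. The 3 genes above SPHKAP were FST, CXCL2 and TTC29, and those after NTNG1 were SPP1 (3.02-fold), ADAMTS19 and LIPH. A gap over 2-fold was found for 0.689% of genes in the higher direction and 0.345% in the lower, and for all 8 genes by the way they were picked.

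**Figure D2:**
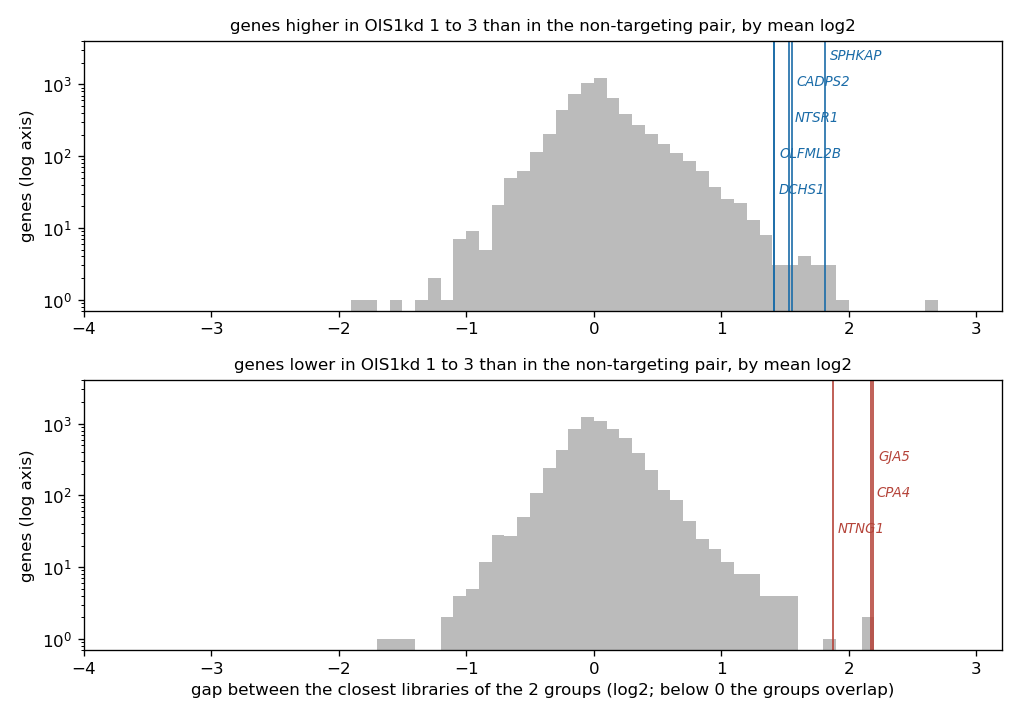
Number of genes (log axis) by the gap between the closest libraries of OIS1kd 1 to 3 and the non-targeting pair, in log2, for genes with a higher mean (top) and a lower mean (bottom) in OIS1kd; below 0 the groups overlap. Coloured lines mark the 8 genes, from 1.41 for DCHS1 to 2.19 for GJA5. The gap of CPA4 is a lower limit, as its OIS1kd values are at the floor.

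The fit across all genes with the 4 OIS1kd libraries in 1 group called 0 of 12481 genes (0%) against the non-targeting pair at an adjusted p under 0.05 (limma, Benjamini-Hochberg), and hence 0 of the 8, although 2805 genes had an unadjusted p under 0.05. With the rule's own libraries in that contrast, nothing is read from the count. OIS1kd 4, the non-targeting pair's contrasts with the control, and the p53kd and BRD7kd libraries are the measures that follow. All of them still lean on the replicated libraries for their spread. The genes were chosen for agreement among most of those libraries, which may make the p-values below too small. With the 4 OIS1kd libraries in 1 group, the spread also holds OIS1kd 4, which the choice did not use. Where OIS1kd 4 lay apart from the other hairpins, p-values may instead be too large. In p53kd against the non-targeting pair, the SE was 1.405 for GJA5, 1.255 for DCHS1 and 1.213 for NTNG1, all such genes. The SE was 0.206 for OLFML2B and 0.319 for SPHKAP, where OIS1kd 4 lay near the other hairpins. Contrasts with the non-targeting pair also use the very levels that chose the genes, so their calls are no independent support. A group of 1 library has no spread of its own. With OIS1kd 4 set apart or left out, the spread comes only from the libraries that chose the genes. Calls of the 8 in those fits are no independent support either.

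OIS1kd 4, the hairpin the choice did not use, shared the direction of OIS1kd 1 to 3 in 5 of the 8 genes. Of all genes tested, 43.5% were above both non-targeting libraries in OIS1kd 4 and 46.5% below both, and OIS1kd 4 stood apart from the other hairpins by Dixon's ratio of log2 values in 5.24% of the 12186 genes not at the floor in all of OIS1kd 1 to 3. SPHKAP was at 920.3 and OLFML2B at 521.3 in OIS1kd 4, near the other hairpins. CADPS2, at 283.9, and NTSR1, at 1467.3, lay further above the non-targeting pair than the other hairpins did, and GJA5, at the floor of 20, lay further below. DCHS1 went the other way, with 340.8 in OIS1kd 4, under both non-targeting values, and NTNG1, at 635.4, and CPA4, at 100.7, were above both.

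With OIS1kd 4 as its own group, limma called 6 of the 8 genes against the non-targeting pair, where 21.6% of all genes tested were called; the pair also served to choose the genes. CADPS2 rose by 3.59 ± 0.149 on the log2 scale (SE, limma adjusted p = 0.000702) and NTSR1 by 3.23 ± 0.138 (limma adjusted p = 0.000785). SPHKAP rose by 1.78 ± 0.263 (limma adjusted p = 0.021) and OLFML2B by 1.77 ± 0.208 (limma adjusted p = 0.0135). GJA5 was at the floor and at least 45.3-fold lower (limma adjusted p = 0.000398), and DCHS1 had a log2 change of -1.11 ± 0.173 (limma adjusted p = 0.0231), opposite to OIS1kd 1 to 3. The log2 differences of NTNG1, 0.40 ± 0.255, and of CPA4, 0.15 ± 0.064, did not pass (limma adjusted p = 0.303 and 0.16). Without non-targeting library 1 or 2, the calls of SPHKAP (limma adjusted p = 0.0781 and 0.105), OLFML2B (0.0537 and 0.0722) and DCHS1 (0.111 and 0.101) ended.

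Against the other knockdowns, OIS1kd 4 differed from p53kd in 5 of the 8 genes, with 5.54% of all genes called, and from BRD7kd in 6, with 8.4% called. CADPS2, NTSR1, NTNG1 and CPA4 were higher in OIS1kd 4 than in either, and DCHS1 was lower, with log2 differences of -2.91 ± 0.2 from p53kd (limma adjusted p = 0.00487) and -2.40 ± 0.2 from BRD7kd (limma adjusted p = 0.00827). CPA4 was at least 5.04-fold higher in OIS1kd 4, at 100.7, than in p53kd and BRD7kd, both at the floor. GJA5, at the floor in OIS1kd 4, was at least 8-fold lower than in BRD7kd (limma adjusted p = 0.00661), and its difference from p53kd, at 30.3, did not pass (limma adjusted p = 0.219). Without non-targeting library 1 or 2 the calls of CADPS2 and NTNG1 ended in both contrasts, at adjusted p from limma of 0.0528 to 0.0986, and without any 1 of those libraries or of OIS1kd 1 to 3 that of NTSR1 against p53kd ended, at 0.052 to 0.0933. OIS1kd 1 to 3 are all at the floor for CPA4, so its SE there, 0.074 on the log2 scale, rests on the non-targeting pair and the moderation across genes. For all 8 genes the spread in this fit comes only from the libraries that chose them, so the calls are no independent support.

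p53kd lay on the same side of the non-targeting pair as OIS1kd 1 to 3 in all 8 genes; 43.4% of all genes tested were above both non-targeting libraries in p53kd and 45% below both. Limma called 2 of the 8, with 3.84% of all genes called, against a pair whose values helped choose both genes. SPHKAP read 1147.6 in p53kd, against 305.9 and 234.4 in the non-targeting pair, a log2 change of 2.10 ± 0.319 (limma adjusted p = 0.0467). OLFML2B read 574.7 in p53kd, against 172.9 and 135.8 in the non-targeting pair, a log2 change of 1.91 ± 0.206 (limma adjusted p = 0.0467). GJA5 was at 30.3 in p53kd, lower than in OIS1kd 1 to 3, with a log2 change of -4.90 ± 1.41 that did not pass (limma adjusted p = 0.1). The p53kd and OIS1kd contrasts share the non-targeting libraries, so their likeness carries no test.

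The 2 calls in p53kd depended on the replicated libraries. Leaving out a non-targeting library or OIS1kd 1, 2 or 3 also lowered the count of all genes called, so the loss is not particular to these genes. Without non-targeting library 1 or 2 both genes had an adjusted p from limma of 0.211 or 0.279. Without OIS1kd 1, 2 or 3 it was 0.068, 0.061 and 0.0772 for SPHKAP and 0.0657, 0.061 and 0.0767 for OLFML2B, and without a variance trend it was 0.0515 for SPHKAP and 0.0504 for OLFML2B. Without OIS1kd 4 more of the 8 and more of all genes were called against the non-targeting pair. The spread then came only from the libraries that chose the genes, so nothing is read from those calls.

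BRD7kd was on the side of OIS1kd 1 to 3 in 7 of the 8 genes, while 40.1% of all genes tested were above both non-targeting libraries in BRD7kd and 45.4% below both. Limma called 0 of the 8 against the non-targeting pair, with 0.00801% of all genes called, that 1 gene being BRD7 itself. NTSR1 was the exception, at 130.0 in BRD7kd, under both non-targeting libraries, 146.4 and 166.4. OLFML2B, at 543.8, had a log2 change of 1.83 ± 0.206 (limma adjusted p = 0.196), and SPHKAP, at 928.0, one of 1.79 ± 0.319 (limma adjusted p = 0.196). CPA4 was at the floor in BRD7kd, as in p53kd and OIS1kd 1 to 3. Without OIS1kd 4 its spread comes only from OIS1kd 1 to 3, all at the floor, and the non-targeting pair. Nothing is therefore read for CPA4 from a fit without OIS1kd 4.

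p53kd and BRD7kd, which share no library, differed most in NTSR1 and GJA5. NTSR1 was at 591.8 in p53kd and 130.0 in BRD7kd, a log2 difference of 2.19 ± 0.817 (limma adjusted p = 0.777), and GJA5 was at 30.3 in p53kd and 160.0 in BRD7kd, a difference of -2.40 ± 1.62 (limma adjusted p = 0.793). Neither passed, 0 of the 8 genes were called, and 0.016% of all genes were called in that contrast. OLFML2B was at 574.7 in p53kd and 543.8 in BRD7kd, a log2 difference of 0.08 ± 0.238.

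The non-targeting pair set beside the 1 control library compares the 8 genes with and without RASG12V activation, in the absence of a knockdown. SPHKAP was lower with RASG12V, at 305.9 and 234.4 in the non-targeting pair, against 776.1 in the control, a log2 change of -1.54 ± 0.319 (limma adjusted p = 0.0339). NTSR1 was higher, at 146.4 and 166.4 in the non-targeting pair, against the floor of 20 in the control, at least 7.80-fold (limma adjusted p = 0.0468). These are 2 of the 8 genes, and 15% of all genes were called in the contrast, whose non-targeting libraries chose the genes. NTNG1 read 428.1 and 538.2 in the non-targeting pair, against the floor in the control, and CPA4 read 90.2 and 91.0 in that pair, against 1015.0 in the control, and neither passed (limma adjusted p = 0.0589 and 0.0787).

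GJA5 read 923.4 and 889.2 in the non-targeting pair, against 1040.2 in the control, a log2 difference of -0.20 ± 1.41 (limma adjusted p = 0.953). CADPS2, OLFML2B and DCHS1 also lay below the control in both non-targeting libraries, and their differences did not pass; the control was above both non-targeting libraries for 42.8% of all genes tested and below both for 48.1%. The call of SPHKAP ended without non-targeting library 1 or 2 (limma adjusted p = 0.111 and 0.164) and without OIS1kd 1 or 3 (0.0597 and 0.0568). That of NTSR1 ended without non-targeting library 1 or 2 (0.162 and 0.196) and without OIS1kd 1, 2 or 3 (0.0724, 0.077 and 0.0735), and also with a pseudocount of 10 (0.0674) or 50 (0.162), with no filter (0.0602) and with no variance trend (0.05). Leaving out a non-targeting library or OIS1kd 1, 2 or 3 also lowered the count of all genes called in this contrast. Without OIS1kd 4 more of the 8 and more of all genes were called. The spread then came only from the libraries that chose the genes, so nothing is read from those calls.

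Set against the control rather than the non-targeting pair, OIS1kd 1 to 3 lay above both for SPHKAP, CADPS2, NTSR1, OLFML2B and DCHS1, below both for GJA5 and CPA4, and between them for NTNG1. SPHKAP was at 1071.7 to 1485.1 in OIS1kd 1 to 3, against 776.1 in the control, and DCHS1 at 2104.4 to 2661.1 in OIS1kd 1 to 3, against 1295.7 in the control. GJA5 was at 149.1 to 195.1 in OIS1kd 1 to 3, against 1040.2 in the control. Only NTNG1 had OIS1kd values, 85.9 to 116.8, between the control at the floor and the non-targeting pair.

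**Figure D3:**
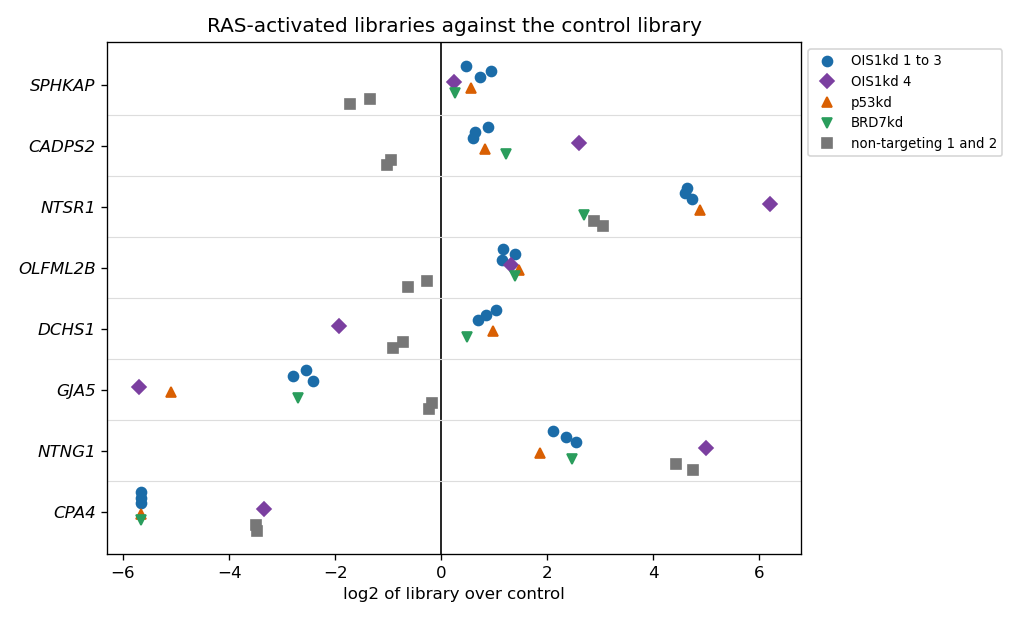
Log2 of each RAS-activated library over the single control library for the 8 genes; points are libraries, and the vertical line at 0 is the control. OLFML2B lies 1.32 above the control in OIS1kd 4, 1.46 in p53kd and 1.38 in BRD7kd, with the non-targeting pair below 0, and CPA4 lies below 0 in every library, at a log2 of -5.67 where it is at the floor.

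The contrasts of p53kd and BRD7kd with the control use no library that chose the genes, except for the spread. In p53kd limma called 3 of the 8 genes, and 9.09% of all genes tested were called. OLFML2B was at 574.7 in p53kd, against 208.4 in the control, 1.46 ± 0.238 higher on the log2 scale (limma adjusted p = 0.0274). NTSR1, at 591.8, was at least 29.6-fold higher than in the control at the floor (limma adjusted p = 0.0291), and CPA4, at the floor, was lower by at least 50.8-fold, against 1015.0 in the control (limma adjusted p = 0.0473). In BRD7kd OLFML2B alone was called, 1 of the 8 genes against 3.79% of all genes, at 543.8 in BRD7kd, against 208.4 in the control, 1.38 ± 0.238 higher on the log2 scale (limma adjusted p = 0.0431).

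Those calls also leaned on single libraries. Leaving out a non-targeting library or OIS1kd 1, 2 or 3 lowered the count of all genes called in both contrasts too, so the loss is not particular to the 8 genes. The log2 differences from the control did not change, since these libraries enter them only through the spread. For p53kd against the control, the call of OLFML2B ended without non-targeting library 1 or 2 or OIS1kd 3 (limma adjusted p = 0.0697, 0.0695 and 0.0504). That of NTSR1 ended without non-targeting library 1 or 2 (0.0922 and 0.0924) or OIS1kd 1, 2 or 3 (0.0504, 0.0536 and 0.0552), and that of CPA4 without any of the same 5 (0.123, 0.123, 0.0741, 0.0788 and 0.0761). A pseudocount of 50 ended that of NTSR1 (0.0562), and no filter (0.0568) or no variance trend (0.0512) that of CPA4. For BRD7kd, OLFML2B lost its call without the non-targeting libraries (0.0918 and 0.0916) or OIS1kd 1, 2 or 3 (0.0771, 0.0794 and 0.0737). Without OIS1kd 4 more of the 8 and more of all genes were called in both contrasts. The spread then came only from the libraries that chose the genes, so nothing is read from those calls.

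OIS1kd 4 differed from the control in 7 of the 8 genes, in a contrast that called 25.8% of all genes. CADPS2, NTSR1, OLFML2B and NTNG1 were higher in OIS1kd 4 than in the control; CADPS2 was at 283.9 in OIS1kd 4, against 46.7 in the control, and NTSR1 and NTNG1 were at least 73.4-fold and 31.8-fold above a control at the floor. DCHS1, GJA5 and CPA4 were lower, DCHS1 by 3.80-fold, CPA4 by 10.1-fold and GJA5, at the floor in OIS1kd 4, by at least 52.0-fold. Since the spread in this fit comes only from the libraries that chose the 8 genes, the calls are no independent support for them. The limma adjusted p was 5.94e-05 for CPA4, whose SE of 0.074 again includes no spread from OIS1kd 1 to 3, and 0.0265 for OLFML2B, whose call ended without non-targeting library 1 or 2 or OIS1kd 1 (0.055, 0.0545 and 0.0514). SPHKAP, at 920.3 in OIS1kd 4, against 776.1 in the control, did not pass (limma adjusted p = 0.587).

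Division genes varied alongside. The summed value of 10 proliferation markers was 12734, 24587, 16089 and 19040 in OIS1kd 1 to 4, 34639 in p53kd and 24127 in BRD7kd, against 8647 and 6688 in the non-targeting pair and 16888 in the control. It was therefore higher in every knockdown library than in either non-targeting one, and highest in p53kd, though markers with high values weigh most in it. Single markers did the same except AURKA in OIS1kd 1, at 733.3, against 817.1 and 692.6 in the non-targeting pair. The part of the difference in division genes in the values of the 8 genes was not tested.

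Genes related to the 8 by function were mixed in direction. Of 138 genes in 8 related lists, 89 were in the table and 81 were tested. In the contrast of the 4 OIS1kd libraries with the non-targeting pair limma called 0 of 81, as it called 0 of all genes. An unadjusted p under 0.05 was found for 11 of the 81, against 22.5% of all genes. Of the connexins and their partners, 3 of 6 tested were higher and 3 lower, with a median log2 change of 0.14, against -0.02 over all genes; without OIS1kd 4, 2 were higher and 4 lower, with a median of -0.03. GJA1, the main connexin of fibroblasts, read 12329.0, 10422.4, 10422.4 and 8350.8 in OIS1kd 1 to 4, against 10789.7 and 11902.6 in the non-targeting pair, so those libraries overlapped while GJA5 was low.

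Of the other lists, all but the olfactomedins held genes in both directions. Median log2 changes were 0.11 for 8 genes of neurotensin signalling, 0.01 for 8 of the Fat-Dachsous system, -0.11 for 4 netrin genes, -0.14 for 21 of vesicle priming, -0.01 for 20 of kinase A anchoring and 0.00 for 9 carboxypeptidases and related proteins. The 5 olfactomedin genes tested all had a mean above that of the non-targeting pair, with a median log2 change of 0.35 and none called; without OIS1kd 4, 4 were above and 1 below. OLFM1 was at the floor in OIS1kd 1 to 3 and at 58.9 in OIS1kd 4, against 23.2 and the floor in the non-targeting pair, and OLFML2A was at the floor in OIS1kd 1 and 3. CADPS, the closest relative of CADPS2, was at the floor in 8 libraries and at 502.7 in OIS1kd 4, where CADPS2 also had its highest value. FAT4, the binding partner of DCHS1, was at 123.4 in OIS1kd 4, against 411.2 and 366.1 in the non-targeting pair, and at 327.0, 408.7 and 382.2 in OIS1kd 1 to 3, where DCHS1 was high.

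**Figure D4:**
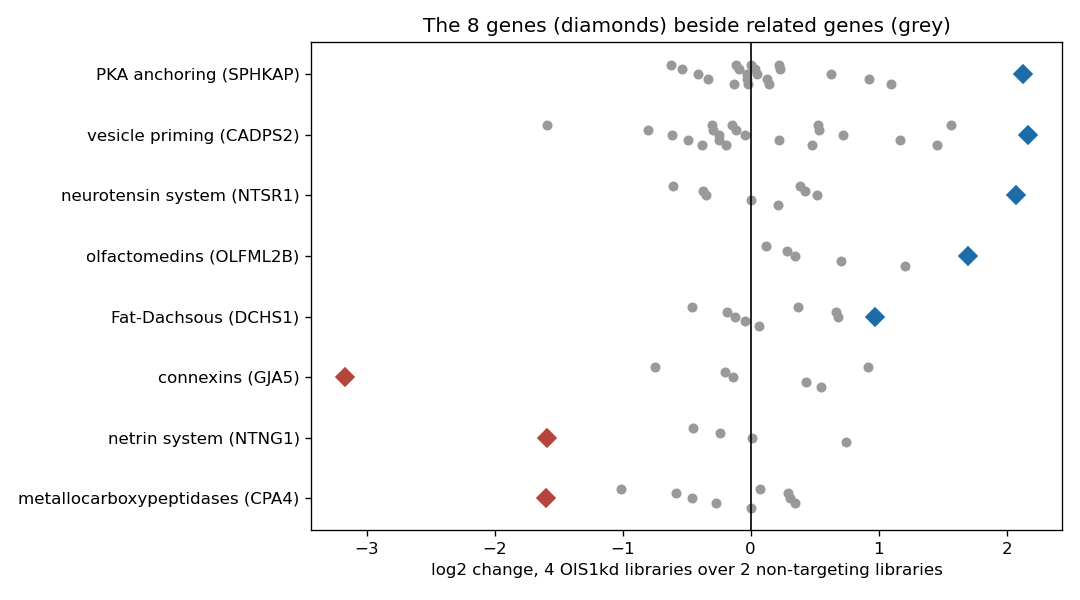
Log2 change of the 4 OIS1kd libraries over the 2 non-targeting libraries for the 8 genes (diamonds, blue higher and red lower) and for the tested genes of each related list (grey points). The diamonds were chosen for their distance from 0, and the grey points lie on both sides of 0 in every list but the olfactomedins, where OLFM1 is above 0 through OIS1kd 4 alone.

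With RASG12V activation alone, 7 of the 81 related genes rose and 6 fell against the control (limma, 15% of all genes called). STX1A, a membrane fusion protein of vesicle release, had a log2 change of 2.84 (limma adjusted p = 0.00217), FJX1, a Golgi kinase of the Fat-Dachsous system, one of 3.02 (0.00625), and PKIA, an inhibitor of protein kinase A at the floor in the control, one of at least 6.0 (0.0111). SORT1, a sorting receptor that binds neurotensin, fell by 1.65 on the log2 scale (0.0196), and NTN4, a secreted netrin, fell by 4.31 (0.0113).

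Of the nearest genes on each side of the 8 that the table holds, up to 2 a side, limma called 0 of 29 tested, with 7 (24.1%) at an unadjusted p under 0.05, against 22.5% of all genes, in the contrast of the 4 OIS1kd libraries with the non-targeting pair. SLCO4A1, an organic anion transporter beside NTSR1, moved most, with 730.3, 431.4, 457.4 and 713.7 in OIS1kd 1 to 4, against 160.8 and 176.2 in the non-targeting pair and 27.0 in the control. Its log2 change was 1.75 (limma adjusted p = 0.0788), and all 4 knockdown values were above both non-targeting ones, as for NTSR1. ACP6, beside GJA5, read 128.6, 126.7, 112.8 and 101.1 in OIS1kd 1 to 4, against 208.6 and 227.2 in the non-targeting pair, a log2 change of -0.90 (limma adjusted p = 0.0792). MEST, a known imprinted gene near CPA4, was at the floor in all 8 RAS-activated libraries and at 380.8 in the control.

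The genes most like each of the 8 over the 9 libraries, by Pearson's r of log2 values among 12047 genes, differed from gene to gene. These are the highest of many values over 9 shared libraries and carry no test. LRP5 (r = 0.996) and SYNGR1 (0.995) were nearest to GJA5, THAP9 (0.992) and PTER (0.969) to DCHS1, and KRTAP1-5 (0.988) and PTPRS (0.987) to CPA4. STRADB (0.985) and MPDU1 (0.973) were nearest to NTSR1, GDF11 (0.982) and PDCD2 (0.979) to NTNG1, and TNFAIP8 (0.97) and ETS1 (0.963) to SPHKAP. OLFML2B was nearest to PGBD1 (0.968) and NRAS (0.967), and CADPS2 to PPP1CA (0.963) and LOH12CR1 (0.96). LRP5, a Wnt co-receptor, read 626.3, 574.3, 620.2 and 342.1 in OIS1kd 1 to 4, 378.8 in p53kd and 543.0 in BRD7kd, against 896.2 and 938.6 in the non-targeting pair and 981.6 in the control, lowest in OIS1kd 4 and p53kd and highest in the control and the non-targeting pair, as for GJA5.

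The 8 genes were picked on 5 of the 9 libraries, which builds in positive r between genes picked for the same direction and negative r between opposite ones. Among them, SPHKAP and OLFML2B varied most alike, with r = 0.903 over the 9 libraries, and CADPS2 and OLFML2B followed with 0.832. CADPS2 and GJA5 were the most opposed, at -0.868. The values for DCHS1 with CADPS2 (-0.04), NTSR1 (-0.04) and GJA5 (-0.03) were near 0; in OIS1kd 4, DCHS1 and GJA5 had their lowest values and CADPS2 and NTSR1 their highest.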

How the data were processed

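PolyA RNA was sequenced from 9 libraries of BJ cells. The deposited table gives a signal per gene, a read count the authors had normalised; every column has identical sorted values, which ties a value to a gene's rank, removes differences in total RNA and hides depth, so no counting error can be given. Per the submitters' processing notes, the tools were TopHat2 and HTSeq and the build hg19, with no versions listed. Groups followed the labels. Log2 values, with no pseudocount, were fitted with limma 3.58.1 in R 4.3.3, with a variance trend on mean level, for 12481 genes with a highest value of at least 40, and p-values were two-sided and adjusted over all of them. The first fit had 5 groups (4 residual degrees of freedom), and the second set OIS1kd 4 apart as a 6th (3). Means are linear with their SD, and folds between groups come from the means of log2 values. With 4 libraries against 2, an exact permutation test cannot go below p = 0.0667 and was not used. Some alternatives left a group with 1 library, assumed to vary like the others. Alternatives were pseudocounts of 10 and 50, other filters, median-of-ratios scaling, no trend, a replicate block and leaving out each library. The genes named were the 8, their 2 likest genes each, the 3 widest gaps per direction outside them, neighbours by order in GRCh38, and members of the related lists; some, such as MEST, FAT4, LRP5 and CADPS, were picked for description after their values were seen. The 8 genes, the lists and the rules were chosen with earlier results of these data known. The fit was tested on simulated data. The level of 1 gene is not reported here.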

Additional observations from a re-analysis of the deposited data

Results flagged for a closer look

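In 5 of 7 genes OIS1kd 4 lay apart from OIS1kd 1 to 3 by Dixon's ratio for 4 log2 values, and the same held for 5.24% of 12186 genes tested; CPA4 was not tested, since OIS1kd 1 to 3 are all at the floor. Chance marks about 1 in 20 groups counting any of the 4 libraries as the one apart, and fewer for OIS1kd 4 by itself. The 8 genes were picked for OIS1kd 1 to 3 lying away from the non-targeting pair together. That choice favours a small spread over OIS1kd 1 to 3, which raises the ratio. The 5 of 7 is therefore not comparable with the share of all genes or with the chance rate. CADPS2 was at 283.9 in OIS1kd 4, against 70.6 to 85.7 in OIS1kd 1 to 3. OIS1kd 4 had NTSR1 at 1467.3, against 481.2 to 527.1 in the other hairpins' libraries. DCHS1 was at 340.8 in OIS1kd 4, against 2104.4 to 2661.1 in OIS1kd 1 to 3. GJA5 was at the floor of 20 in OIS1kd 4, against 149.1 to 195.1 in OIS1kd 1 to 3. NTNG1 was at 635.4 in OIS1kd 4, against 85.9 to 116.8 in OIS1kd 1 to 3.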

How the results depend on the processing

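The 8 genes kept their direction in every contrast and alternative in which they were tested, except that CPA4, at the floor in both p53kd and BRD7kd, had no difference between them as reported. Counts of genes called moved more. With no filter, 57 genes were called in OIS1kd against non-targeting (0 as reported), 30 in BRD7kd against non-targeting (1), 713 in BRD7kd against control (473) and 69 in p53kd against BRD7kd (2). Pseudocounts of 10 and 50 left 0 in BRD7kd against non-targeting, and 50 left 1 in p53kd against BRD7kd. No variance trend gave 1 in OIS1kd, 2 in p53kd (479) and 0 in BRD7kd, each against non-targeting. A mean of at least 80 gave 399 in OIS1kd 4 against p53kd (692). With OIS1kd 4 as a 6th group, counts were 278 for OIS1kd 1 to 3, 2169 for p53kd and 8 for BRD7kd against non-targeting, 3730 for non-targeting (1878), 2879 for p53kd (1135) and 1484 for BRD7kd against control, and 24 for p53kd against BRD7kd.

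Leaving out 1 library at a time gave 0 to 164 genes in OIS1kd, 0 to 2146 in p53kd and 0 to 8 in BRD7kd against non-targeting. It gave 124 to 3704 in non-targeting, 168 to 2862 in p53kd and 135 to 1482 in BRD7kd against control, and 0 to 29 in p53kd against BRD7kd. For OIS1kd 4 it gave 391 to 3125 against non-targeting (2692), 1266 to 3515 against control (3215), 290 to 688 against p53kd and 325 to 1068 against BRD7kd (1049). In the 7 contrasts in which OIS1kd 4 is not a group of its own, the highest count was the one without that library. The cause of these changes was not tested.

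Equal replicate numbers mark different hairpins, so they do not pair libraries; the differences between replicates 1 and 2 of the OIS1kd and non-targeting groups correlated at r = -0.123 across genes. With the replicate number as a block, 0 genes were called in those 4 libraries, as without it. The contrasts of p53kd with BRD7kd, those of OIS1kd 4 with either, and the counts of related genes without OIS1kd 4 were added after seeing the data. Depth is unknown, and 1 library in the control, p53kd and BRD7kd groups limits what can be said of each.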
